A study of Mus musculus with 8 samples.

Results

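The DNA replication and S phase machinery was taken as a named list of 54 genes, of which 49 were measured on the array on a row that carries exactly 1 gene symbol. No measured member had more than 1 such row, so each is represented by 1 transcript cluster out of 16317 rows and 14351 symbols in all. Gins1, Rfc2, Rpa3, Lig1 and Rrm2 had no such row and are not analysed here. The members were named by their function, without a threshold on any measured value, though earlier results of these data were known when the list was chosen.

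RNA was profiled on 8 whole-transcript arrays in 3 groups of mouse samples, 1 array per sample. Granule neuron precursors (GNPs), the dividing cells of the outer layer of the young cerebellum, were purified at postnatal day 8 either from Ptc+/- mice (n = 2), which carry a targeted allele of the hedgehog receptor gene Ptch1, or from RosaGli1-FLAG c/c mice crossed with Math1Cre mice (n = 2), in which Cre driven by the precursor gene Math1 turns on a FLAG-tagged Gli1 from the Rosa locus. The medulloblastomas (n = 4), tumours of the cerebellum, came from adult mice that carried RosaGli1-FLAG c/c, Math1-Cre and Ptc+/- together. Tumours therefore differed from either GNP group in age, in preparation as whole tumour rather than purified cells, and in genotype, and these cannot be told apart from the disease.

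DNA replication starts at origins that the origin recognition complex marks and at which Cdc6 and Cdt1 load the ring-shaped MCM helicase. The kinase Cdc7 with Dbf4, together with Cdc45 and the GINS complex, then converts the loaded helicase into an active fork, where primase and the replicative polymerases copy DNA with the sliding clamp PCNA. Most of these genes are transcribed as cells pass from G1 into S phase under E2F transcription factors, and in GNPs hedgehog signalling keeps this programme running during the first postnatal weeks in the mouse.

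Intensities were quantile normalized over the 8 arrays, and every level below is log2(intensity + 1) on that scale, with a difference in log2 units. Values of different genes come from different probes and cannot be ranked against each other. Of the 49 members, 46 lay above the 50th percentile of their array on all 8 arrays, and Orc1 reached down to the percentile 30.7. Of 7 markers of GNPs, Atoh1 and Barhl1 rose and Pax6 and Meis1 fell in tumours against Ptc+/- GNPs, while Zic1 differed by 0.04 (limma adjusted p = 0.911). Zic2 and Neurod1 did not pass there. Over the 7 markers 3 differences lay above 0 and 4 below, with a median of -0.44. On the 4 GNP arrays the mean marker level was 7.61 to 8.89 for endothelium, 7.39 to 7.75 for microglia, 7.53 to 8.31 for oligodendrocytes, 8.06 to 9.08 for astrocytes and Bergmann glia, and 5.06 to 5.29 for Purkinje cells, which does not rank these cell types. Replicates are called biological in the labels, but the labels do not tie each array to its own mouse, so p-values measure the spread between these samples only.

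Few replication genes passed the threshold between tumours and GNPs, and those that did moved in both directions. Against Ptc+/- GNPs, the comparison that the study's design names, Chaf1a rose, Slbp and Rrm1 fell, and 46 of 49 members did not pass limma's test at an adjusted p of 0.05. The 1 rise was 2.04% of the members, beside 7.54% of all rows, and the 2 falls were 4.08%, beside 8.92%. Without adjustment, 14 of the 49 members had a limma p under 0.05, beside 5435 of 16317 rows. The median difference over the 49 members was -0.16, beside 0.01 over all rows, and was -0.22 beside 0.13 with each array centred on its median. Centring also moved the split of all rows from 1231 rising and 1456 falling to 1713 and 1352, while the members stayed at 1 and 2, with Orc4 in place of Rrm1. All 4 tumours lay above both Ptc+/- GNP arrays for 5 members (10.2%, beside 19.9% of all rows) and below both for 11 (22.4%, beside 22.1%). For 36 of 49 members (73.5%, beside 50.7% of all rows, dim ones included) the 95% interval of the difference lay within 2-fold in either direction. The 13 members whose interval reached beyond 2-fold included Dut, Tk1, Gmnn, Rfc4 and Fen1, the 5 members with the highest SD among the tumours (0.54 to 0.81). No member passed without either Ptc+/- GNP array, Slbp alone passed without either Gli1-FLAG array or without medulloblastoma 1, and 6 members passed without medulloblastoma 4.

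**Figure D1:**
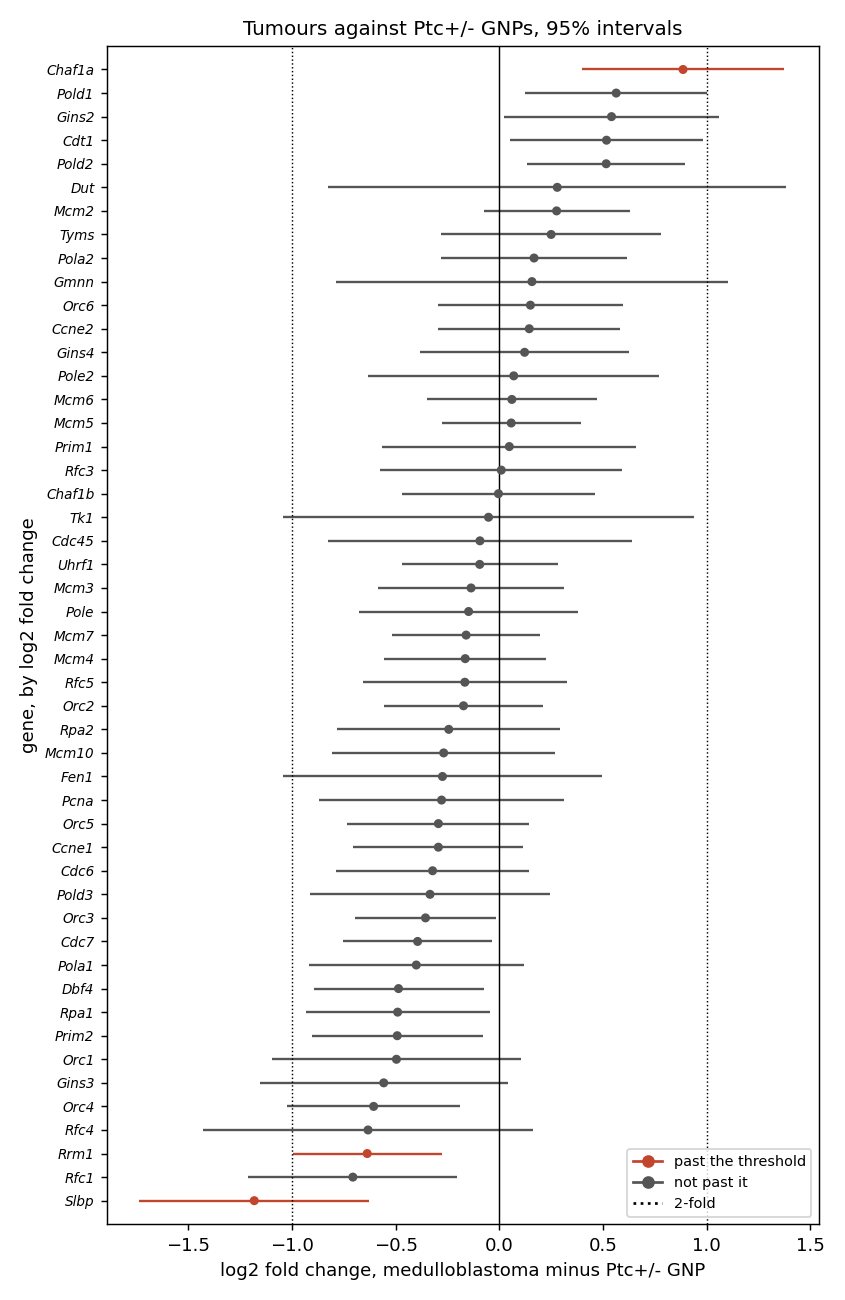
Difference between medulloblastomas (n = 4) and Ptc+/- GNPs (n = 2) for each of the 49 measured replication genes, in log2 units on the horizontal axis, ordered by size. Points are fitted differences, bars are 95% intervals from limma's fit, and dotted lines mark 2-fold. Chaf1a at 0.89 and Slbp at -1.18 and Rrm1 at -0.64 are the members past the threshold.

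With the tumours set against the mean of both GNP groups, which rests on 4 precursor arrays, 8 members passed. Mcm2, Pold1, Pold2 and Chaf1a rose (4 of 49, 8.16%, beside 10.7% of all rows) and Orc4, Prim2, Rrm1 and Slbp fell (4 of 49, 8.16%, beside 12.6%). The tumour arrays lay above all 4 GNP arrays for 5 members (10.2%, beside 14.7%) and below all 4 for 7 (14.3%, beside 16.5%). Against Gli1-FLAG GNPs alone, Chaf1a, Mcm2 and Pold1 rose (6.12%, beside 4.65%) and Slbp fell (2.04%, beside 5.63%). These comparisons share the tumour arrays, and the comparison with both groups is the average of the other tumour comparisons, so they do not count as separate evidence. Of the 8 calls against both GNP groups, 5 held without medulloblastoma 2, where Orc4, Prim2 and Rrm1 lost theirs and the members' median moved from -0.07 to 0.03. Leaving out Gli1-FLAG replicate 1 left Slbp, replicate 2 left Slbp and Chaf1a, Ptc+/- replicate 1 left Slbp and Pold1, and Ptc+/- replicate 2 left Slbp, Pold1 and Chaf1a. Without medulloblastoma 1, 4 members passed, and without medulloblastoma 4, 12 did. Against Gli1-FLAG GNPs alone, no member passed without either Gli1-FLAG array or without medulloblastoma 1, Slbp alone passed without either Ptc+/- array, and Slbp and Pold1 passed without medulloblastoma 3.

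**Figure D2:**
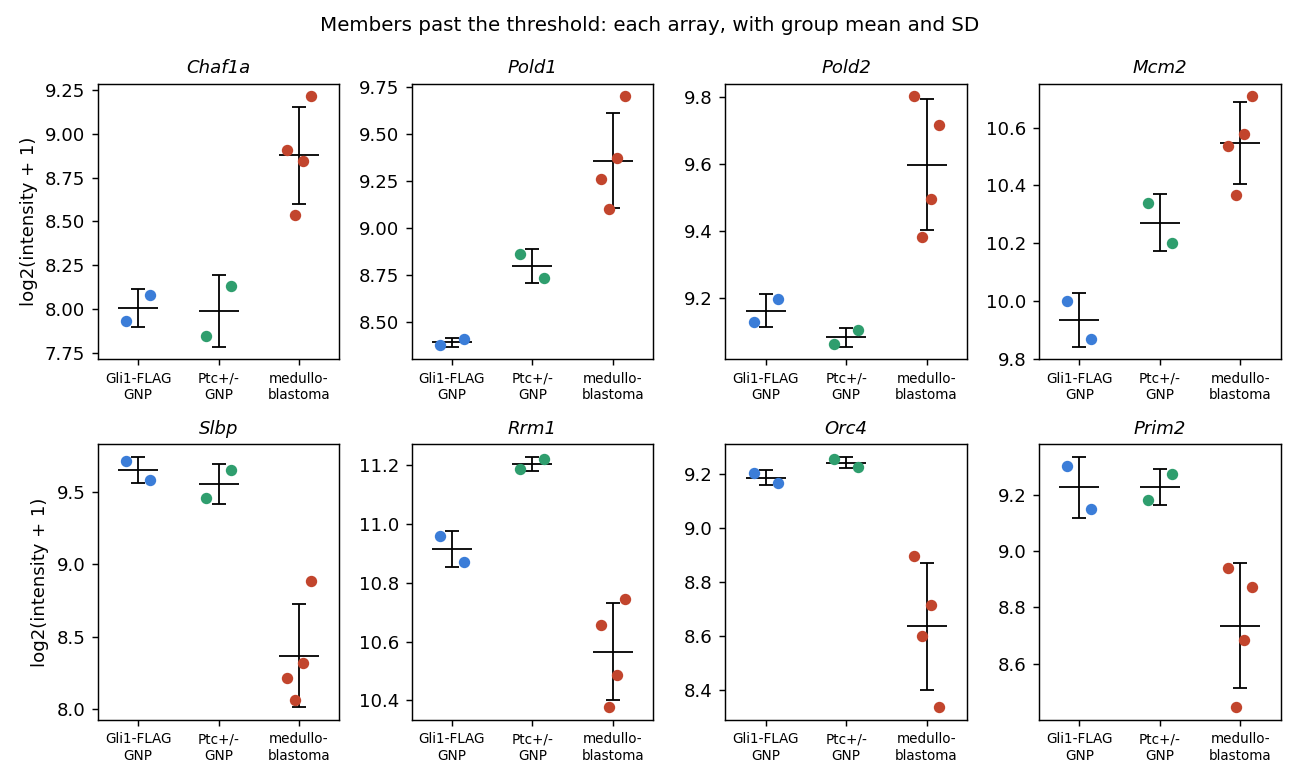
Levels of the 8 members past the threshold in any tumour comparison, as log2(intensity + 1) on each array, with points for arrays, horizontal bars for group means and error bars for the SD. The vertical axes start at different values for each gene and do not compare genes. In all 8 panels the tumour arrays lie on 1 side of the 4 GNP arrays.

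Among the 6 subunits of the MCM helicase, which unwinds DNA ahead of the fork, Mcm2 was the member that passed. Mcm2 (transcript cluster 6955381) was at 10.002 and 9.87 in Gli1-FLAG GNPs, at 10.34 and 10.20 in Ptc+/- GNPs, and at 10.54, 10.37, 10.58 and 10.71 in the tumours. All tumours lay above all GNP arrays, and the Gli1-FLAG arrays lay lowest. The tumour mean of 10.55 ± 0.14 (SD, n = 4) was 0.61 above Gli1-FLAG GNPs (9.94 ± 0.09, SD, n = 2; limma adjusted p = 0.0456) and 0.44 above both GNP groups (adjusted p = 0.0387). Against Ptc+/- GNPs it was 0.28 higher (95% interval -0.08 to 0.63; adjusted p = 0.244), which did not pass. With arrays centred on their medians Mcm2 did not pass against Gli1-FLAG GNPs (adjusted p = 0.135) or against both groups (adjusted p = 0.114). The other subunits Mcm3 to Mcm7 differed from Ptc+/- GNPs by -0.16 to 0.06, and the interval of each of the 6 lay within 2-fold. Mcm7, for example, was at 11.06 and 10.88 in Ptc+/- GNPs and at 10.89, 10.67, 10.72 and 10.97 in the tumours, so its groups overlapped.

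The promoters of 3 MCM genes are shown, with and without motifs of the E2F factors named above, beside the measured levels. RefSeq promoter windows of build GRCm38.p6, from 250 bases before to 50 after each annotated start, were found for 42 of the 49 measured members. Searched on both strands, the E2F forms TTTGGCGC, TTTCCCGC, TTTCGCGC and TTTGCCGC occurred in 15 of these 42 genes (35.7%), beside 2.61% of 27025 genes with such a window. The CCAAT box, CCAAT, occurred in 24 (57.1%, beside 41.1%), and the CHR element, TTTGAA, in 7 (16.7%, beside 20.2%). The genes with an E2F form were Cdc6, Cdt1, Gins3, Mcm3, Mcm5, Mcm6, Mcm7, Orc1, Orc3, Pola1, Pold1, Pold3, Pole2, Rfc3 and Uhrf1. They include Pold1, which rose against Gli1-FLAG GNPs, and Mcm6 and Mcm7, which did not pass in any comparison, and a match is a description of these letters only. The stretches run 5′ to 3′ along the gene, from 200 bases before the start to 30 after it, with motif matches in capitals. In Mcm5 and Mcm6 the longest run of capitals holds TTTGGCGC on 1 strand and TTTCGCGC on the other, and these overlap. ATTGG is the CCAAT box read on the opposite strand. Mcm2 holds a CCAAT box on the opposite strand and a CHR element, and none of the E2F forms searched.
Mcm2, chr6:88898751-88898980, minus strand: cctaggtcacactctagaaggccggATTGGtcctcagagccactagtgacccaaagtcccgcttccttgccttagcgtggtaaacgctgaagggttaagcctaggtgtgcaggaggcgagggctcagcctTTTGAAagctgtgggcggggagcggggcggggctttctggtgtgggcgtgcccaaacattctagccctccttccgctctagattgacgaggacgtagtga
Mcm5, chr8:75109309-75109538, plus strand: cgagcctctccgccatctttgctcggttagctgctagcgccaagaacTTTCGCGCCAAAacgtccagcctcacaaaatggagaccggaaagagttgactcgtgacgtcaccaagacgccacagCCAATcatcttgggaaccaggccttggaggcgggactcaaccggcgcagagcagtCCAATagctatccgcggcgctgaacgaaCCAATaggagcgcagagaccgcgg
Mcm6, chr1:128359676-128359905, minus strand: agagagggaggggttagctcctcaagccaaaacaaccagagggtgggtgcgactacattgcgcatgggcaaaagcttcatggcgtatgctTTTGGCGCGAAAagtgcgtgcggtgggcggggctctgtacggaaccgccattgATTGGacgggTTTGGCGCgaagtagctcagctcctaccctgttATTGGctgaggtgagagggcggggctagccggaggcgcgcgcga

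**Figure D3:**
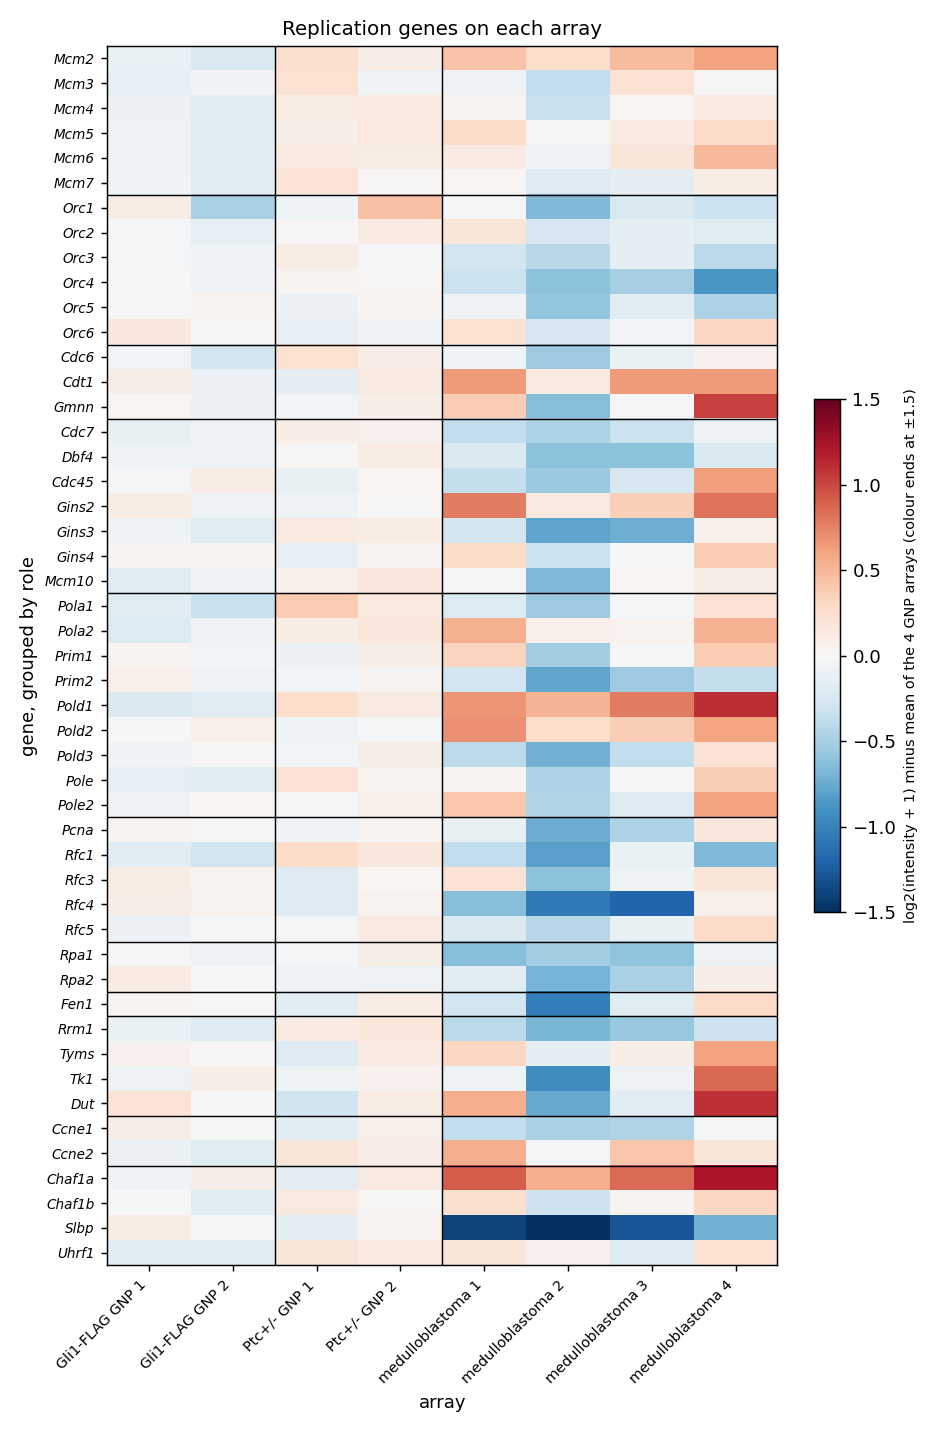
Level of each of the 49 measured replication genes on each of the 8 arrays, coloured by log2(intensity + 1) minus the mean of the 4 GNP arrays, with genes in rows grouped by role and arrays in columns. The colour scale ends at 1.5 in either direction, and the Slbp row holds the lowest values, in the tumour columns. The column of medulloblastoma 2 is blue for most genes, with 40 of 49 below the GNP mean.

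The origin recognition complex lay lower in tumours for 5 of its 6 subunits, with a median of -0.32 against Ptc+/- GNPs, and 1 subunit passed. Orc4 (transcript cluster 6886525) was at 9.21 and 9.17 in Gli1-FLAG GNPs, at 9.26 and 9.23 in Ptc+/- GNPs, and at 8.90, 8.60, 8.72 and 8.34 in the tumours. No tumour array reached a GNP array, and medulloblastoma 4 was lowest. Orc4 fell by 0.58 against both GNP groups (8.64 ± 0.24, SD, n = 4, against 9.22 ± 0.04, SD, n = 4; limma adjusted p = 0.0281) and differed by -0.61 from Ptc+/- GNPs alone (adjusted p = 0.0569). Orc3, at 9.83 and 9.69 in Ptc+/- GNPs and at 9.44, 9.29, 9.57 and 9.30 in the tumours, also lay below them on every tumour array but did not pass (-0.36; adjusted p = 0.134). Orc1, an ATPase subunit of the complex, differed by -0.50 (95% interval -1.10 to 0.10; adjusted p = 0.221), with Gli1-FLAG arrays at 6.52 and 5.92 and Ptc+/- arrays at 6.34 and 6.84. Orc6 was the subunit above 0, at 0.15.

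The licensing factors and their inhibitor did not pass in any of the 4 comparisons. Cdt1, which loads the helicase, was at 8.87 and 8.70 in Gli1-FLAG GNPs, at 8.64 and 8.93 in Ptc+/- GNPs, and at 9.42, 8.93, 9.43 and 9.43 in the tumours. All tumours but medulloblastoma 2 lay above every GNP array, and medulloblastoma 2 equalled the higher Ptc+/- array. Its difference of 0.52 from both GNP groups missed the threshold (limma adjusted p = 0.0566), and it passed without medulloblastoma 2 both there and against Ptc+/- GNPs. Gmnn encodes geminin, which binds Cdt1 and blocks a repeat loading within the same cycle. It ranged from 7.30 in medulloblastoma 2 to 8.96 in medulloblastoma 4, across the GNP range of 7.85 to 8.03, and its difference of 0.16 from Ptc+/- GNPs had a 95% interval of -0.79 to 1.10. Cdc6, the loading ATPase, differed by -0.32 (adjusted p = 0.301).

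The genes that fire licensed origins likewise held no call. Cdc7 and its activator Dbf4 differed from Ptc+/- GNPs by -0.39 (limma adjusted p = 0.121) and -0.49 (adjusted p = 0.0991), and each lay below both Ptc+/- arrays on every tumour array. Dbf4 was at 9.95 and 10.04 in Ptc+/- GNPs and at 9.71, 9.30, 9.32 and 9.70 in the tumours, and Cdc7 at 9.15 and 9.12 and at 8.68, 8.58, 8.74 and 8.98. Gins2, a subunit of the GINS complex that joins Cdc45 and the helicase, ran the other way. It was at 8.31 and 8.13 in Gli1-FLAG GNPs, at 8.13 and 8.22 in Ptc+/- GNPs, and at 8.96, 8.33, 8.55 and 9.01 in the tumours, above every GNP array in each tumour. Its difference of 0.52 from both GNP groups did not pass (adjusted p = 0.0764). Gins3, Gins4, Cdc45 and Mcm10 differed from Ptc+/- GNPs by -0.56 to 0.12, without passing.

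Subunits of the replicative polymerases moved in opposite directions, with the polymerase delta genes Pold1 and Pold2 higher and the primase gene Prim2 lower in tumours. Pold1 (transcript cluster 6966875), the catalytic subunit of the polymerase that extends the lagging strand, was at 8.37 and 8.41 in Gli1-FLAG GNPs, at 8.86 and 8.73 in Ptc+/- GNPs, and at 9.26, 9.10, 9.37 and 9.70 in the tumours. The 3 groups did not overlap, with Gli1-FLAG GNPs lowest and tumours highest. Pold1 rose by 0.97 against Gli1-FLAG GNPs (1.96-fold; limma adjusted p = 0.0253) and by 0.77 against both GNP groups (adjusted p = 0.0134), and differed by 0.56 from Ptc+/- GNPs (adjusted p = 0.0806). Pold2 (transcript cluster 6785750), an accessory subunit, was at 9.13 and 9.20 in Gli1-FLAG GNPs, at 9.06 and 9.10 in Ptc+/- GNPs, and at 9.80, 9.38, 9.49 and 9.71 in the tumours. It lay above all GNP arrays in every tumour and rose by 0.48 against both groups (adjusted p = 0.0397; 0.157 with arrays centred on their medians). Pold3, the next subunit of this polymerase, differed by -0.31 from both GNP groups and did not pass.

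Prim2 (transcript cluster 6757732), the large primase subunit, was at 9.30 and 9.15 in Gli1-FLAG GNPs, at 9.18 and 9.27 in Ptc+/- GNPs, and at 8.94, 8.44, 8.69 and 8.87 in the tumours. Every tumour lay below every GNP array, and Prim2 fell by 0.49 against both groups (limma adjusted p = 0.0460). Its partner Prim1, the catalytic subunit, differed by 0.05 with groups that overlapped. Pola1 and Pola2, which encode the polymerase that extends the primers, differed from Ptc+/- GNPs by -0.40 and 0.17. Pole and Pole2, of the leading strand polymerase, differed by -0.15 and 0.07, and none of these 4 passed.

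The sliding clamp, its loader, the single-strand binding protein and the flap nuclease lay mostly lower in the tumour means but held no call. Pcna, the clamp, was at 11.37 and 11.30 in Gli1-FLAG GNPs, at 11.27 and 11.38 in Ptc+/- GNPs, and at 11.22, 10.59, 10.86 and 11.50 in the tumours, so the tumours spanned the GNP range. Its difference of -0.28 from Ptc+/- GNPs had a 95% interval of -0.87 to 0.31 (limma adjusted p = 0.487). Rfc1, the large subunit of the clamp loader, was at 9.71 and 9.59 in Ptc+/- GNPs and at 9.06, 8.61, 9.32 and 8.77 in the tumours, with no overlap, and differed by -0.71 (adjusted p = 0.0636). Its Gli1-FLAG arrays, at 9.26 and 9.15, lay within the tumour range. Rfc4 showed a gap among the tumours, with 9.46 in medulloblastoma 4 and 8.20 to 8.75 in the rest, and differed by -0.63 (95% interval -1.43 to 0.16). Rpa1, which coats single-stranded DNA, lay below all GNP arrays in every tumour, narrowly so in medulloblastoma 4, and differed by -0.46 from both GNP groups (adjusted p = 0.0694). Fen1, the nuclease that trims Okazaki fragments, ranged from 8.04 in medulloblastoma 2 to 9.35 in medulloblastoma 4.

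Of the 4 measured genes of deoxynucleotide supply, Rrm1 fell, and Dut and Tk1 spread widely among the tumours (SD 0.81 and 0.73), Tyms less so (SD 0.32). Rrm1 (transcript cluster 6963049), the large subunit of ribonucleotide reductase, which makes deoxynucleotides, was at 10.96 and 10.87 in Gli1-FLAG GNPs, at 11.19 and 11.22 in Ptc+/- GNPs, and at 10.66, 10.38, 10.49 and 10.74 in the tumours. The groups did not overlap, with Ptc+/- GNPs highest. Rrm1 fell by 0.64 against Ptc+/- GNPs (10.57 ± 0.16, SD, n = 4, against 11.20 ± 0.02, SD, n = 2; limma adjusted p = 0.0325) and by 0.49 against both GNP groups (adjusted p = 0.0291), while its difference of -0.35 from Gli1-FLAG GNPs did not pass (adjusted p = 0.187). Over the 17 alternatives its adjusted p against Ptc+/- GNPs ran from 0.0108 to 0.172, and it passed in 8. Dut, which removes dUTP, was at 10.39, 9.08, 9.69 and 10.94 in the tumours, around GNP levels of 9.54 to 10.05, and its difference of 0.28 from Ptc+/- GNPs had a 95% interval of -0.83 to 1.38. Tyms, thymidylate synthase, differed by 0.25 and the thymidine kinase gene Tk1 by -0.05. The cyclin E genes Ccne1 and Ccne2, whose products activate Cdk2 at the entry to S phase, differed by -0.29 (adjusted p = 0.284) and 0.14 (adjusted p = 0.636).

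The largest fall and the largest rise among the 49 members against Ptc+/- GNPs both belonged to genes that package new DNA, Slbp and Chaf1a. Slbp (transcript cluster 6937254) encodes the protein that binds the stem-loop at the end of replication-dependent histone mRNAs and is needed for their processing and translation. It was at 9.71 and 9.58 in Gli1-FLAG GNPs, at 9.45 and 9.65 in Ptc+/- GNPs, and at 8.22, 8.06, 8.32 and 8.88 in the tumours. Every tumour lay below all 4 GNP arrays, and the GNP groups overlapped. Slbp fell by 1.18 against Ptc+/- GNPs (8.37 ± 0.36, SD, n = 4, against 9.55 ± 0.14, SD, n = 2; 2.27-fold lower; limma adjusted p = 0.0195), by 1.28 against Gli1-FLAG GNPs (adjusted p = 0.0219) and by 1.23 against both (adjusted p = 0.00641). The last of these held in all 16 alternatives run for it, with adjusted p from 0.00228 to 0.0366. Against Ptc+/- GNPs alone it held in 15 of 17 and was lost without Ptc+/- replicate 1 (adjusted p = 0.120) and without replicate 2.

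Chaf1a (transcript cluster 6851204), the large subunit of chromatin assembly factor 1, which places new histones behind the fork, was at 7.93 and 8.08 in Gli1-FLAG GNPs, at 7.85 and 8.13 in Ptc+/- GNPs, and at 8.91, 8.54, 8.84 and 9.21 in the tumours. The GNP groups overlapped and the tumours lay above them all. Chaf1a rose by 0.89 against Ptc+/- GNPs (8.88 ± 0.28, SD, n = 4, against 7.99 ± 0.20, SD, n = 2; 1.85-fold; limma adjusted p = 0.0305), by 0.87 against Gli1-FLAG GNPs (adjusted p = 0.0424) and by 0.88 against both (adjusted p = 0.0120). The first of these held in 10 of 17 alternatives, with adjusted p up to 0.217 without Ptc+/- replicate 1. Its partner Chaf1b did not pass, with a 95% interval of -0.47 to 0.46, and Uhrf1, which guides maintenance methylation of new DNA, by -0.09. The promoters of the 3 members that passed against Ptc+/- GNPs are shown with their CCAAT boxes in capitals, of which Slbp holds 3, Rrm1 holds 2 and Chaf1a holds 1. None of the 3 windows holds an E2F form of those searched.
Slbp, chr5:33652545-33652774, minus strand: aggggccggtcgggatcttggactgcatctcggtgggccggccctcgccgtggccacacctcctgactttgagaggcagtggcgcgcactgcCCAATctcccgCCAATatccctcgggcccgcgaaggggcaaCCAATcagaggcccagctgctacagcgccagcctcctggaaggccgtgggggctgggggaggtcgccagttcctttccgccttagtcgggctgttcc
Rrm1, chr7:102441495-102441724, plus strand: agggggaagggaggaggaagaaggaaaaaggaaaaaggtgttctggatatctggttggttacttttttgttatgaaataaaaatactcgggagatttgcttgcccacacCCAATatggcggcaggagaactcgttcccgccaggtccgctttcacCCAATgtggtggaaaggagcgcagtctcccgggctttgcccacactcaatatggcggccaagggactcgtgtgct
Chaf1a, chr17:56040216-56040445, plus strand: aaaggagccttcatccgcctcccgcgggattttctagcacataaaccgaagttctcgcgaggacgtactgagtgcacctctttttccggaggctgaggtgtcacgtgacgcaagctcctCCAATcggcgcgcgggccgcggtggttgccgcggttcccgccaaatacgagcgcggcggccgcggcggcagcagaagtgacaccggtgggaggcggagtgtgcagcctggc

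Rows of the replication-dependent histone genes, the transcripts that Slbp binds, were read beside it. There were 29 rows whose symbols are all current names of such genes, a choice made after seeing the annotation, and 10 of them carried 1 symbol. Against Ptc+/- GNPs 5 of the 29 rose (17.2%, beside 7.54% of all rows) and 6 fell (20.7%, beside 8.92%), with a median of -0.21. Against Gli1-FLAG GNPs 3 rose (10.3%, beside 4.65%) and 2 fell (6.90%, beside 5.63%). Rows that share probes are not independent. H1f3, a linker histone gene, fell by 2.42 (7.02 and 8.04 in Ptc+/- GNPs against 5.70, 4.54, 4.77 and 5.45 in the tumours; limma adjusted p = 0.0129). H4c12, a core histone gene, rose by 2.02 (7.07 and 8.18 against 9.40, 10.13, 9.53 and 9.49; adjusted p = 0.0126). The calls thus ran in both directions while every tumour had less Slbp than every GNP array. Histone copies are nearly identical and share probes, so values of single genes are uncertain. Both histone genes were named after their values had been seen.

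Other genes of the replisome and of S phase, in lists that hold none of the 49 members, were called in both directions against Ptc+/- GNPs. Of 25 measured replisome and fork genes 1 rose and 1 fell (4% each, beside 7.54% and 8.92% of all rows). Pole4, which encodes a small subunit of the leading strand polymerase, was at 8.63 and 8.70 in Ptc+/- GNPs and at 9.79, 9.37, 9.80 and 10.49 in the tumours, and rose by 1.20 (limma adjusted p = 0.0309). Top1, the topoisomerase that relaxes DNA ahead of the fork, fell by 0.67 (adjusted p = 0.0459). Of 15 genes of nucleotide synthesis 2 rose (13.3%) and 1 fell (6.67%): the serine hydroxymethyltransferase gene Shmt1 by 0.69 (adjusted p = 0.0304), the nucleoside diphosphate kinase gene Nme2 by 1.18 (adjusted p = 0.0441), and the purine synthesis gene Paics, which fell by 0.99 (adjusted p = 0.0198). Of 19 S phase regulators and chromatin genes none passed in this fit, with the lowest adjusted p at 0.121 and 3 of 19 at an unadjusted p under 0.05. Of 17 mitosis genes 2 fell (11.8%), the checkpoint kinase gene Bub1 by 0.77 (adjusted p = 0.0320) and the topoisomerase gene Top2a by 0.69 (adjusted p = 0.0477), and the median was -0.45.

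Between the GNP groups no member passed, and most differences were small. Gli1-FLAG GNPs against Ptc+/- GNPs gave 0 rises and 0 falls among the 49 members in limma's fit, beside 0% of all rows rising and 0% falling, and 0 members had an unadjusted p under 0.05, against 525 rows of 16317. Over all rows the lowest adjusted p was 0.0717, so the fit made no call anywhere in this comparison. For 42 of 49 members (85.7%, beside 65.2% of all rows, dim ones included) the 95% interval lay within 2-fold, and the members' median was -0.06. Both Gli1-FLAG arrays lay below both Ptc+/- arrays for 22 members (44.9%, beside 24% of all rows) and above both for 4 (8.16%, beside 22.3%). The Ptc+/- arrays differed, with 23 of 49 members above the mean of the 4 GNP arrays on replicate 1 and 44 on replicate 2. The members' median was -0.12 without Ptc+/- replicate 1 and -0.02 without replicate 2. All 6 MCM genes had lower means in Gli1-FLAG GNPs, by 0.18 to 0.33 in log2 units, and 5 of them did not overlap, with Mcm4 at 9.74 and 9.66 against 9.94 and 9.96. That direction held for all 6 genes with arrays centred on their medians, where 3 did not overlap and the members' median was -0.07 beside 0.06 over all rows, and with cyclic loess, where 6 did not. The widest gap was in Pola1, at 8.12 and 7.96 against 8.68 and 8.45, a difference of -0.52 (adjusted p = 1.0). The Y-linked gene Eif2s3y was at 4.54 and 4.12 on the Gli1-FLAG arrays and at 8.99 and 9.01 on the Ptc+/- arrays, so genotype and Y-linked signal cannot be told apart in this comparison. In medulloblastomas 1 to 4 Eif2s3y was at 8.97, 8.32, 4.55 and 8.84. Y-linked signal thus also differed among the tumours, with medulloblastoma 3 near the Gli1-FLAG arrays and the others nearer the Ptc+/- arrays.

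The tumours differed from each other in these genes more than the GNP replicates did, and largely in the same order from gene to gene. The median SD over the 49 members was 0.26 among the tumours, 0.09 among Ptc+/- GNPs and 0.06 among Gli1-FLAG GNPs, beside 0.30, 0.14 and 0.09 over all rows. The wider spread of the tumours is thus not particular to these genes, and the SDs rest on 4 tumours but on 2 arrays per GNP group. Medulloblastoma 2 was the lowest of the 4 tumours in 44 members (89.8%, beside 29.5% of all rows and 32.0% of rows above the 50th percentile on every array). Medulloblastoma 4 was the highest in 35 (71.4%, beside 28.1% and 27.6%). As the median difference from the mean of the 4 GNP arrays, the members stood at -0.02 in medulloblastoma 1, -0.49 in medulloblastoma 2, -0.10 in medulloblastoma 3 and 0.21 in medulloblastoma 4. Members lay above the GNP mean for 36 of 49 genes in medulloblastoma 4 and for 9 of 49 in medulloblastoma 2. With arrays centred on their medians medulloblastoma 2 was lowest in 47 members and medulloblastoma 4 highest in 23, beside 49.7% and 19.2% of the bright rows. With cyclic loess medulloblastoma 2 was lowest in 38 and medulloblastoma 4 highest in 37, beside 24.3% and 29.1%. The tumours were not grouped by any label, so this is a description of 4 samples with no test.

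**Figure D4:**
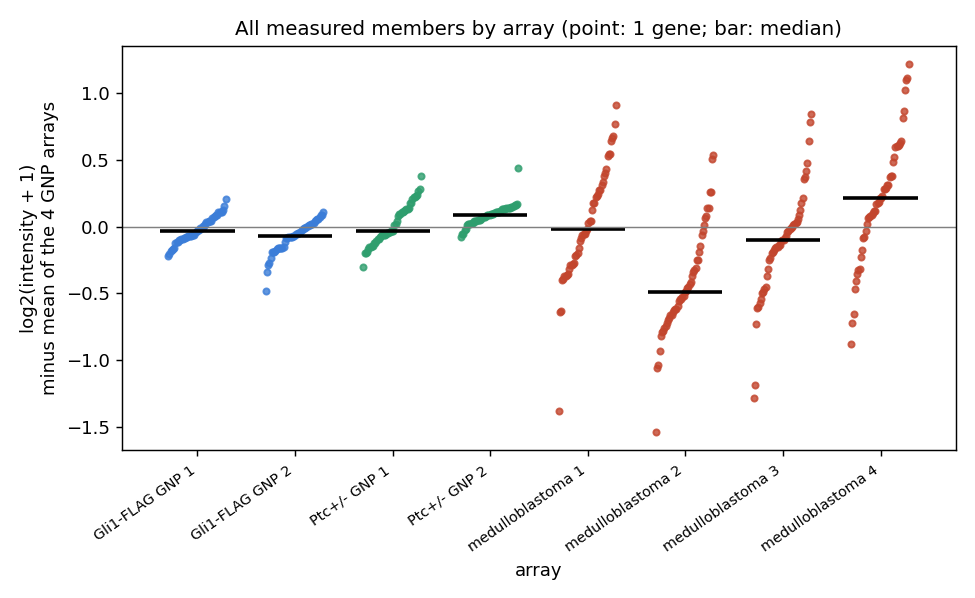
Each point is 1 of the 49 replication genes, as log2(intensity + 1) minus the mean of the 4 GNP arrays on the vertical axis, for each of the 8 arrays, and the bar is the median of the array. The medians of the GNP arrays lie between -0.07 and 0.09, that of medulloblastoma 2 at -0.49 and that of medulloblastoma 4 at 0.21.

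The gap between medulloblastomas 4 and 2 had a median of 0.60 over the members, beside 0.03 over all rows, and 48 of 49 genes were higher in medulloblastoma 4. It was widest in Dut (3.62-fold), Tk1 (3.47-fold) and Gmnn (3.17-fold). Tk1, named after its values were seen, was at 8.72, 7.87, 8.72 and 9.67 in the 4 tumours, around GNP levels of 8.72 to 8.89. By role, the median gap was 1.27 in deoxynucleotide supply, 0.76 in primase and polymerases, 0.37 in the MCM helicase and 0.10 in the origin recognition complex. Orc4 was the exception, 0.26 lower in medulloblastoma 4. Rpa1, Pola2, Rfc4 and Uhrf1 were the other genes not lowest in medulloblastoma 2. The separate mitosis list ran the same way, with medulloblastoma 2 lowest in 15 of 17 genes and medulloblastoma 4 highest in 12.

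Markers of differentiated neurons varied across the same tumours. All 5 markers of mature granule neurons (Gabra6, Grin2c, Cbln1, Cbln3 and Slc17a7) were highest in medulloblastoma 2 and lowest in medulloblastoma 4 among the tumours. Their mean level was 8.92, 10.55, 8.39 and 5.85 in medulloblastomas 1 to 4, beside 7.003 to 7.25 on the GNP arrays. All 3 Purkinje cell markers (Calb1, Pcp2 and Car8) were also highest in medulloblastoma 2, with means of 8.67, 10.21, 4.82 and 5.55, beside 5.06 to 5.29 on the GNP arrays. Gabra6, a receptor gene of mature granule neurons, was at 8.11, 9.79, 6.77 and 4.41 in the tumours and at 3.97 to 4.54 in GNPs, and no marker was at 0 on any array. Oligodendrocyte markers averaged 8.26, 9.05, 6.54 and 6.94 in medulloblastomas 1 to 4, and astrocyte and Bergmann glia markers 8.13, 8.90, 5.55 and 7.89. Both means were highest in medulloblastoma 2 as well, but the single genes were split. In medulloblastoma 2, 3 of 5 oligodendrocyte and 3 of 4 astrocyte and Bergmann glia markers were highest. In medulloblastoma 4, 2 and 1 of them were highest. On the GNP arrays the means of the oligodendrocyte list were at 7.53 to 8.31 and those of the astrocyte and Bergmann glia list at 8.06 to 9.08. Endothelial markers averaged 6.57 to 6.64 in the tumours and microglial ones 8.21 to 9.32, beside 7.39 to 7.75 for the latter in GNPs. The 7 GNP markers averaged 10.97, 10.94, 11.20 and 10.52 in medulloblastomas 1 to 4, beside 10.85 to 11.05 on the GNP arrays. Of these 7, 6 were lowest and 0 highest in medulloblastoma 4, while 1 was lowest and 1 highest in medulloblastoma 2. The part of these cell types in the members' levels was not tested, and in bulk RNA fewer dividing cells and less RNA per cell cannot be told apart.

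**Figure D5:**
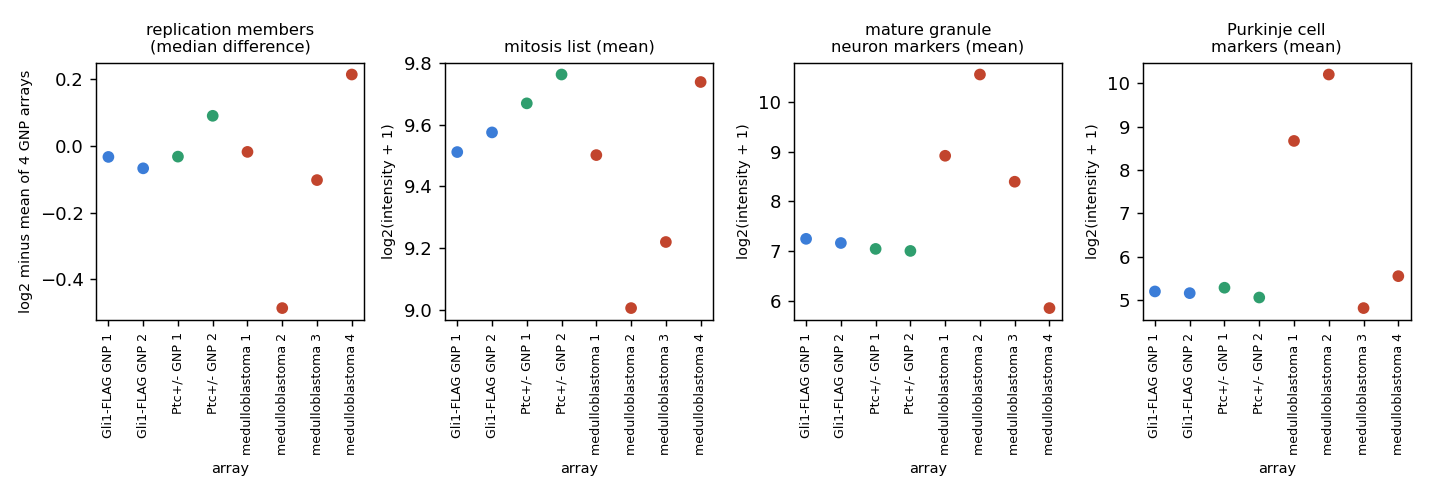
For each of the 8 arrays, from left to right, the median difference of the 49 replication genes from the mean of the 4 GNP arrays and the mean log2(intensity + 1) of the mitosis list, of 5 markers of mature granule neurons and of 3 markers of Purkinje cells. Vertical axes differ between panels. Medulloblastoma 2 has the lowest replication median at -0.49 and the highest marker means at 10.55 and 10.21, and medulloblastoma 4 has the highest replication median at 0.21 and the lowest granule neuron mean at 5.85.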

How the data were processed

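RNA prepared with Trizol and depleted of ribosomal RNA was labelled for Affymetrix whole-transcript arrays, per the labels' protocols. The deposited intensity values are linear whole numbers on 8 arrays, with array medians from 109 to 310, so they had not been scaled to each other; how background was corrected and probes summarized is not given in the labels. The genome build is mm8, per the submitters' processing notes. Of 16317 rows, 14551 carried 1 symbol, 1146 several and 620 none in the platform annotation, and only the first were named. The 1 value below 0 was set to 0, arrays were quantile normalized, and log2(intensity + 1) was fitted with limma 3.58.1 in R 4.3.3 (lmFit with 3 group means over all arrays, then eBayes). P-values were adjusted by Benjamini-Hochberg over all rows within each of 4 comparisons that share arrays, with a threshold of 0.05. Array number limits precision, with 5 residual and 2.45 prior degrees of freedom. The script was tested on simulated data. Tables and figures were made with Python 3.11.15, pandas 2.3.3 and matplotlib 3.10.9.

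The named members are those past the threshold in any comparison and the 3 per role with the lowest p against Ptc+/- GNPs, and genes of the other lists are those past the threshold there, at most 4 per list. Members named beyond these, such as Mcm3, Mcm5, Mcm6, Orc6, Gins3, Gins4, Cdc45, Mcm10, Prim1, Pola1, Pola2, Pold3, Pole, Pole2, Chaf1b and Tk1, complete their role groups or were chosen after their values were seen. Members and lists were chosen with earlier results of these data known. Promoter sequences come from RefSeq, build GRCm38.p6, and were not placed on mm8.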

Additional observations from a re-analysis of the deposited data

Results flagged for a closer look

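Among the 29 named members, 1 had a tumour far from the others relative to the range of its tumours. Cdt1 was at 8.93 in medulloblastoma 2 and between 9.42 and 9.43 in the other tumours, and the gap made up 0.994 of the whole tumour range, above Dixon's 95% critical value for 4 samples. This ratio is high since the other tumours lay close together, and the gap itself was not the widest. Fen1, for one, was at 8.04 in medulloblastoma 2 and at 8.78 to 9.35 in the others. Medulloblastoma 2 was the lowest tumour in 44 of 49 members. Chance takes about 1 in 20 groups past that critical value, and 29 were examined. Without medulloblastoma 2, Cdt1 rose by 0.65 against Ptc+/- GNPs (limma adjusted p = 0.0413).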

How the results depend on the processing

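The members called against Ptc+/- GNPs numbered 3, and became 6 with a log offset of 16, 6 with dim rows left out, 6 with eBayes trend and robust, 7 with array weights per group, 1 with only the arrays compared and 1 with the replicate block; leaving out each array in turn gave 0 to 6. Against Gli1-FLAG GNPs they numbered 4, and became 2 with arrays centred on medians, 7 with array weights, 1 with only the arrays compared, 1 with the replicate block and 0 to 5 with each array left out. Against both GNP groups they numbered 8, and became 3 with the replicate block and 1 to 12 with each array left out. Medulloblastoma 4 was highest in 35 members, and in 23 with arrays centred on medians. The cause of these moves was not tested, except that fewer arrays enter where arrays are left out and that the block drops medulloblastomas 3 and 4, which share no replicate number with the GNPs. Over all rows, same-numbered samples did not deviate together (correlations of -0.073 to 0.0088). Whether the numbers pair the samples in some genes only was not tested. No member passed between the GNP groups in any alternative run. Over the named members and alternatives 1763 results kept their direction and side of the threshold, 92 lost a call, 41 gained one, 47 uncalled differences changed sign and 0 calls reversed. With 2 arrays per GNP group, a missed threshold does not show that levels were equal. Signal over background could not be read, since no background values were used here.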

Other observations

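Called histone rows went both ways among H2A and H2B rows in tumours against Ptc+/- GNPs, while 2 of 5 H4 rows rose and none fell, 1 of 5 H3 rows fell and 1 of 3 H1 rows fell. Among H2B rows, H2bc22 fell by 1.25 (limma adjusted p = 0.0110) and a row shared by several H2B copies fell by 2.29 (adjusted p = 0.00406), while another such row rose by 1.23 (adjusted p = 0.0334). Against Gli1-FLAG GNPs none of the H2B rows passed. There, H2bc22 and these shared rows differed by -0.52, -0.31 and 0.43 (adjusted p = 0.138, 0.464 and 0.390). H2ac6, a dim H2A gene, fell by 2.69 (adjusted p = 0.0338), and 2 rows shared by H2A copies rose by 1.31 and 1.27 (adjusted p = 0.0181 and 0.0218) while another such row fell by 1.47 (adjusted p = 0.0248). These shared H2A rows also passed against Gli1-FLAG GNPs, but H2ac6 did not (-0.64; adjusted p = 0.561). The H3 row that fell did so by 0.60 (adjusted p = 0.0345) and did not pass against Gli1-FLAG GNPs (-0.43; adjusted p = 0.109). Copies of these genes share probes, and the part of this in the values was not tested.

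Markers of other cell types also changed against Ptc+/- GNPs. Of 5 oligodendrocyte lineage markers Olig1 and Olig2 rose by 2.39 and 1.59 (limma adjusted p = 0.0139 and 0.0147), the other 3, Mbp, Mog and Mag, had differences below 0 that did not pass, and the list's median was -0.49. Of 6 microglia markers the complement genes C1qb, C1qc and C1qa rose by 2.04, 2.00 and 1.64. The other 3, Csf1r, Aif1 and Cx3cr1, did not pass, and 1 of them lay below 0, at -0.12. Of 5 endothelial markers 3 fell, among them Kdr and Pecam1 by 3.02 and 2.00 (adjusted p = 0.00751 and 0.00960). Their part in the levels of the replication genes was not tested.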
